A study of Mus musculus with 6 samples.

Results

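Aggrecan, chondromodulin, the cartilage link protein, matrilins 1 and 3, cartilage oligomeric matrix protein, the transcription factors Sox9, Sox5 and Sox6, and S100b form a set of 10 genes that cartilage cells use. Their probe sets were chosen by name: all those that the platform annotation assigns to exactly 1 gene of the set, which gave 26 of the 34945 single-gene probe sets and 10 of 18194 genes. Total RNA of sorted osteocytes, the cells embedded in bone matrix, had been hybridised to 6 arrays, 3 from mice in which estrogen receptor alpha (ERα) was deleted in osteocytes (ERαΔOcy/ΔOcy, labelled knock-out) and 3 from littermates labelled wild type in the sample names and ERαflox/flox in the extraction protocol. All mice were C57/BL6 females of 10 to 12 days that carried the Dmp1-GFP reporter, and green cells of the calvaria were sorted after the sutures had been removed and the tissue had been digested. The sources used here give neither the Cre driver nor whether control mice carried Cre, so an effect of Cre and one of ERα loss cannot be told apart. Pooled calvariae are mentioned in the extraction steps and unpooled RNA in the design, so p-values measure only the spread between these arrays.

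Cartilage matrix is a gel of aggrecan, a large proteoglycan, bound along hyaluronan and held there by the link protein Hapln1, within a network of cartilage collagens that matrilins and Comp bridge. Sox9 drives the cartilage programme and acts together with Sox5 and Sox6, which are partners on the enhancers of genes such as Acan, Col2a1 and Matn1. The skull vault forms as bone without a cartilage template, so these genes are not part of the standard description of a calvarial osteocyte, and S100b, a calcium-binding protein, is also made by glial cells.

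The upstream sequences of Acan, Cnmd, Hapln1, Matn1 and Matn3 are shown. These 5 genes were picked with their values known. By the brightest probe set of each, all 3 knockout arrays lay above all 3 control arrays. Whether they share regulation was not tested. The letters are from RefSeq, build GRCm38.p6, 5′ to 3′ on the gene's own strand, ending at the annotated gene start. A window of 250 bases before a transcript start was searched, and bases that lie inside the annotated gene were left out of the print. Capitals mark a GC box, GGGCGG, found on either strand, with matches that overlap counted separately.
Acan (chr7:79052976-79053225, plus strand): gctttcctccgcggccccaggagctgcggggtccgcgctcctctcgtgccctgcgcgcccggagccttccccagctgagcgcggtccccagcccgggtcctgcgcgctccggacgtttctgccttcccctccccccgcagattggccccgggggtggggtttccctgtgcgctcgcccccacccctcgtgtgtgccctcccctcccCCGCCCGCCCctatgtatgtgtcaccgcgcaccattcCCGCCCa
Cnmd (chr14:79662195-79662433, minus strand): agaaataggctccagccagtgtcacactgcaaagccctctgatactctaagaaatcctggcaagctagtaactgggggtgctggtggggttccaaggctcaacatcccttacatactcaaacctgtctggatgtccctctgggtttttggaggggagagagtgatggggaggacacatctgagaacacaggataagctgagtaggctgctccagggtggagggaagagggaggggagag
Hapln1 (chr13:89540386-89540528, plus strand): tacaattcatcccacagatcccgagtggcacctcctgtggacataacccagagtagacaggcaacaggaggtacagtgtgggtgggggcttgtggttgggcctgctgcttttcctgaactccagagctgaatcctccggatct
Matn1 (chr4:130944135-130944384, plus strand): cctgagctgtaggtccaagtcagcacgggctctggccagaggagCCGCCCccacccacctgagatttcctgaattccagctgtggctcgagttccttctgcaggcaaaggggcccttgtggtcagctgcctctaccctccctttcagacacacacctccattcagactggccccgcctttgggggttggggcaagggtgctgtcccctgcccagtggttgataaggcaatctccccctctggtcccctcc
Matn3 (chr12:8947679-8947928, plus strand): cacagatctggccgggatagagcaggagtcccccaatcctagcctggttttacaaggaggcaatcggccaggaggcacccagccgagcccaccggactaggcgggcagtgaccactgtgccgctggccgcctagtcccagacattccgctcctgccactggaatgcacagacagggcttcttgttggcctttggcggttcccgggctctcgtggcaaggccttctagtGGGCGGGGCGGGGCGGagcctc

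The Acan sequence holds 3 GC boxes, 2 of which overlap, Matn3 holds 3 that overlap in 1 run, Matn1 holds 1, and none was found in the windows of Cnmd and Hapln1. Over all 32851 RefSeq windows of this length 32.7% held at least 1. The SOX cores ACAAAG and ACAATG, the TATA box TATAAA and the full estrogen response element GGTCANNNTGACC, each searched on both strands, were not found in these 5 windows. They were present in 16.5%, 10.7%, 12.4% and 0.0639% of all windows. These are matches of letters in short windows and say nothing of sites elsewhere.

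In the deposited signals 38.6% to 46.9% of probe sets on an array lay under 16, and the array medians of log2(signal + 16) spanned 0.36, so the arrays were quantile normalised and every level below is on that log2 scale, which understates the change of dim genes. The osteocyte marker Dmp1 had levels of 12.41 to 12.69 in knockout arrays and of 12.67 to 12.97 in control arrays, and Phex, a regulator of phosphate, of 10.90 to 10.99 and 10.89 to 11.03. Of 11 osteocyte markers 10 were tested, 7 of them below control, with a median difference of -0.13. The groups were separated downward in 2 of the 10, Dkk1 at -0.70 and Ptprz1 at -0.21, and upward in 0. Over all tested genes 7.76% were separated downward and 9.23% upward. Muscle RNA differed between arrays of a group: 14 skeletal muscle markers had a summed signal of 4757 to 22304 in knockout arrays and of 260.1 to 38474.7 in control arrays, with control replicate 2 at the bottom. Knockout arrays had Pearson's r of 0.984 to 0.988 with each other over the 10916 tested genes, and control arrays of 0.939 to 0.969, as a description of arrays whose genes are not independent.

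All 10 cartilage genes lay above control on average in knockout osteocytes, and in 8 of them every knockout array was above every control array. Over all tested genes 48.3% lay above control, 9.23% had groups separated upward and 7.76% downward. All 10 passed the level filter, Matn3 and Sox5 only through their knockout arrays. The differences were largest for Cnmd at 4.71-fold, Matn1 at 3.36-fold and Acan at 2.72-fold, and 7 of the 10 reached 1.5-fold, which 1.30% of all tested genes did. The median difference of the 10 genes was 0.90 on the log2 scale, against -0.01 for all tested genes. None passed an adjusted p of 0.05 in limma with all 6 arrays, where 0% of genes passed, and the smallest adjusted p of any gene was 0.120. An unadjusted p under 0.05 was reached by 8 of the 10, all higher, against 5.85% of all genes. The 10 genes were read in the same 6 RNA samples and are not replicates of each other. In sorted bulk RNA, more cells of a type and more RNA per cell cannot be told apart.

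**Figure D1:**
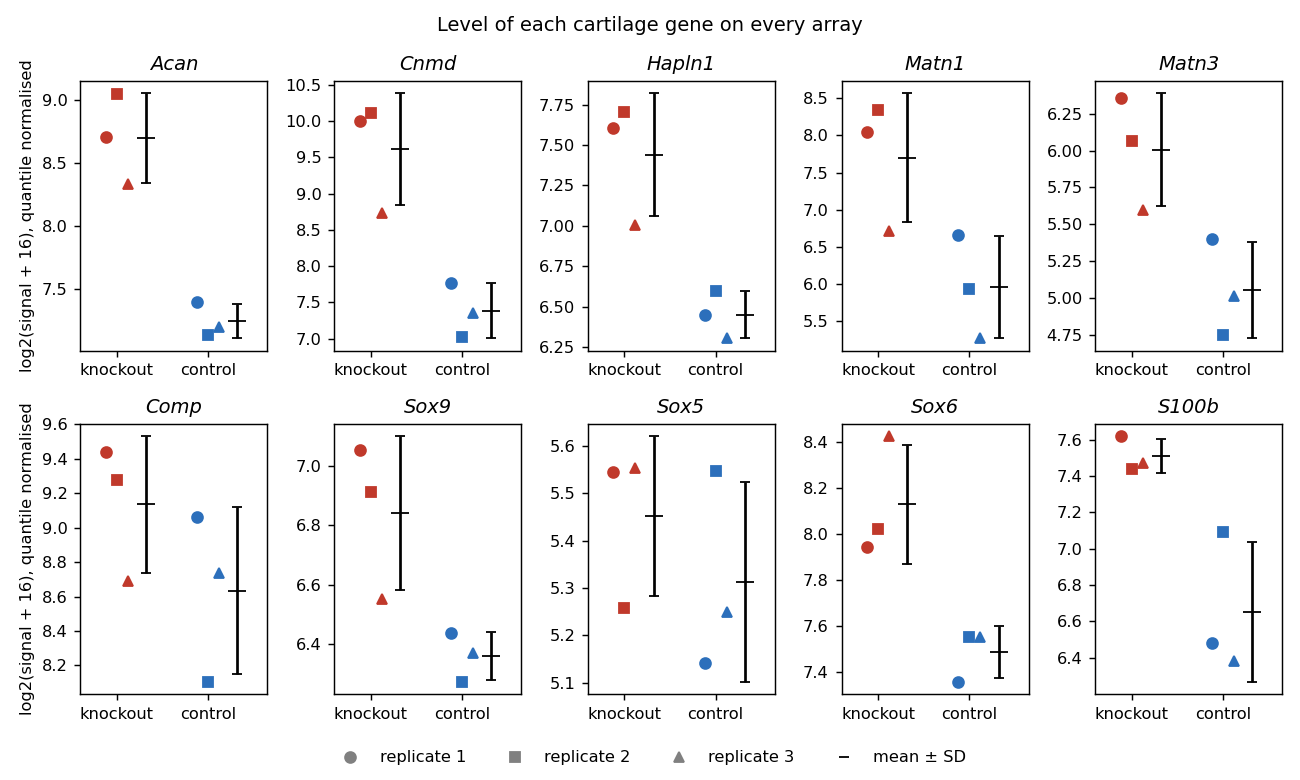
Each panel plots the quantile-normalised log2(signal + 16) of 1 gene, with the 3 knockout arrays left and the 3 control arrays right, a marker shape for each replicate number, and the mean ± SD (n = 3) beside each group. The vertical axes differ between panels. The groups overlap in Comp and Sox5 and are separated in the other 8 genes, in Matn1 by 0.06.

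Acan, the core protein of aggrecan, had log2 levels of 8.70, 9.04 and 8.33 in knockout replicates 1, 2 and 3, against 7.40, 7.14 and 7.20 in control replicates 1, 2 and 3. The lowest knockout array was 0.93 above the highest control array, and the control arrays lay within 0.26 of each other while the knockout arrays spanned 0.71. The difference was 1.44 ± 0.18 (SE, limma, 95% confidence interval 1.02 to 1.87, adjusted p = 0.120), and Acan was rank 6 of 10916 by p. In deposited signals it stood at 392.6, 488.4 and 387.2 in knockout arrays and at 161, 115 and 113.9 in control arrays.

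Hapln1, the link protein that locks aggrecan onto hyaluronan, was read by 4 probe sets. The brightest had 7.61, 7.71 and 7.00 in knockout replicates 1, 2 and 3, against 6.45, 6.60 and 6.30 in control replicates 1, 2 and 3. All knockout arrays were above all control arrays, by at least 0.41, and knockout replicate 3 was the lowest of its group. The difference was 0.99 ± 0.20 (SE, limma adjusted p = 0.214). The other probe sets lay at 0.82, 0.67 and 0.40, with separated groups in the first of them and overlap in the others, where control replicate 1 reached 6.82 and 6.67.

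Cnmd, chondromodulin, a membrane glycoprotein of cartilage that restrains blood vessel growth, had the largest difference of the set. Its levels were 10.00, 10.11 and 8.73 in knockout replicates 1, 2 and 3, against 7.77, 7.02 and 7.35 in control replicates 1, 2 and 3. Knockout replicate 3 lay 1.27 under knockout replicate 1 and still 0.96 above the highest control array. The difference was 2.23 ± 0.37 (SE, limma, 95% confidence interval 1.37 to 3.10, adjusted p = 0.183). Deposited signals were 975.6, 1055.2 and 516.9 in knockout arrays and 213.3, 104 and 128.6 in control arrays.

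Matn1, the matrilin of resting and proliferating cartilage, had 8.04, 8.34 and 6.71 in knockout replicates 1, 2 and 3, against 6.65, 5.93 and 5.27 in control replicates 1, 2 and 3. This was the widest spread in the set, 1.64 among knockout arrays and 1.38 among control arrays, and knockout replicate 3 was only 0.06 above control replicate 1. The difference of 1.75 ± 0.48 (SE, limma adjusted p = 0.326) was the second largest of the 10 while its confidence interval of 0.63 to 2.86 was the widest.

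Matn3, a matrilin mutated in a human chondrodysplasia, was read by 2 probe sets. The brighter, whose suffix x marks probes that may bind other transcripts too, had 6.36, 6.06 and 5.60 in knockout replicates 1, 2 and 3, against 5.40, 4.75 and 5.02 in control replicates 1, 2 and 3. The groups were separated by 0.20, and the mean difference came to 0.95 ± 0.25 (SE, limma adjusted p = 0.311). The other probe set differed by 0.79, with control replicate 1 at 5.76 above knockout replicate 3 at 5.34. Without control replicate 3, with the brightest probe set chosen again, the difference was 0.56, against 0.94 with the probe set kept. The control mean of 5.06 was under the filter level of 5.37, and that of Sox5, at 5.31, was too.

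Comp, a pentameric thrombospondin of cartilage, tendon and ligament, did not separate the groups. It had 9.44, 9.28 and 8.69 in knockout replicates 1, 2 and 3, against 9.06, 8.11 and 8.74 in control replicates 1, 2 and 3, so that knockout replicate 3 lay between control arrays. The difference was 0.50 ± 0.28 (SE, limma, 95% confidence interval -0.14 to 1.14, adjusted p = 0.565), and without control replicate 2 it was 0.24.

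The transcription factors differed by less than most of the matrix genes. Sox9 had 7.05, 6.91 and 6.55 in knockout replicates 1, 2 and 3, against 6.44, 6.27 and 6.37 in control replicates 1, 2 and 3, a difference of 0.48 ± 0.15 (SE, limma adjusted p = 0.377). The lowest knockout array was 0.12 above the highest control array. Another Sox9 probe set differed by 0.57 with overlapping groups, and the last, with signals of 0.9 to 13.6 on all arrays, was under the filter at a difference of 0.15.

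Sox6, the SoxD protein that works beside Sox9, had 7.94, 8.02 and 8.42 in knockout replicates 1, 2 and 3, against 7.36, 7.55 and 7.55 in control replicates 1, 2 and 3. Here knockout replicate 3 was the highest array and not the lowest. Knockout exceeded control by 0.64 ± 0.15 (SE, limma adjusted p = 0.274), while the other 3 probe sets lay at 0.25, 0.20 and 0.18, with separated groups in the second of these. The mean of all 4 probe sets differed by 0.32. With 1 array left out and the brightest probe set chosen again, the difference was 0.15 without control replicate 3, 0.24 without knockout replicate 3 and 0.30 without knockout replicate 2, against 0.67, 0.49 and 0.69 with the probe set kept.

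Sox5, the other SoxD member, lay close to the level filter. It had 5.54, 5.26 and 5.55 in knockout replicates 1, 2 and 3, against 5.14, 5.55 and 5.25 in control replicates 1, 2 and 3, and the groups overlapped. The difference was 0.14 ± 0.17 (SE, limma, 95% confidence interval -0.27 to 0.54, adjusted p = 0.812). Of its 7 probe sets 4 were under the filter, and the 7 differences ran from -0.28 to 0.24. For the brightest, leaving out control replicate 1 gave 0.05, and leaving out knockout replicate 2 gave 0.24.

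S100b, the calcium-binding protein, was the member whose knockout arrays lay closest together. It had 7.62, 7.44 and 7.47 in knockout replicates 1, 2 and 3, against 6.48, 7.09 and 6.38 in control replicates 1, 2 and 3, with control replicate 2 nearest to the knockout arrays. Knockout exceeded control by 0.86 ± 0.19 (SE, limma adjusted p = 0.263), and the second probe set, also with separated groups, was at 0.65 ± 0.15 (SE, limma fit of all probe sets, adjusted p = 0.245). Of 6 Schwann cell and glia markers with a probe set, 1 passed the filter, Mbp, with a difference of 0.00. The summed signal of these 6 was 61.4 to 94.7 in knockout arrays and 82.6 to 100 in control arrays. Sox10, a SoxE factor of glia, had signals of 2.7, 10.1 and 33.9 in knockout arrays and of 26.7, 20.2 and 20.8 in control arrays.

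Counted over all 26 probe sets, 23 lay above control and 3 below, and 11 separated the groups upward and 0 downward. The 11 were all among the 21 that were tested, and of all 20967 probe sets tested 8.94% separated the groups upward. The shares above control and separated downward were not counted over all probe sets. All 3 below 0 belonged to Sox5 and were under the filter, as were 5 of the 26 in total. In the separate limma fit of all probe sets 0 of the 21 tested passed 0.05, as did 0% of all probe sets, and Acan had an adjusted p of 0.0976 there.

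**Figure D2:**
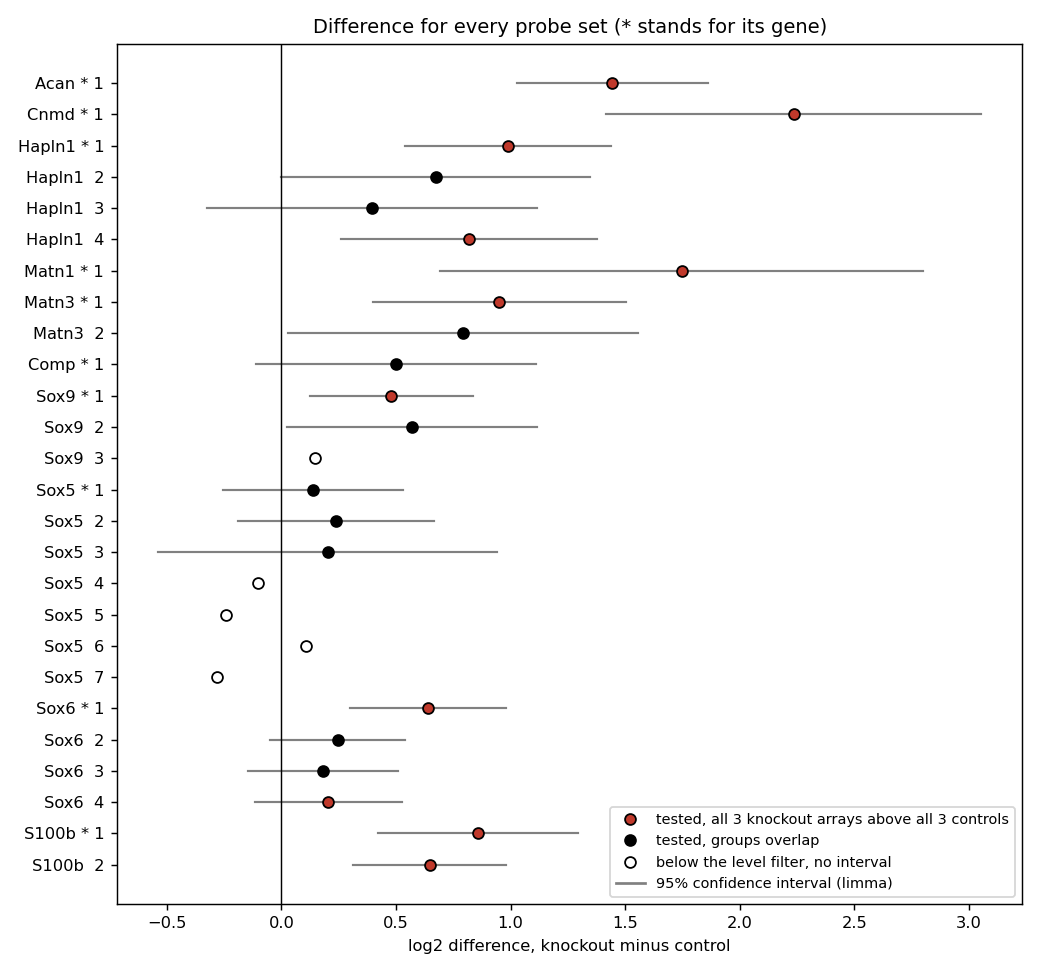
Each row is 1 of the 26 probe sets, in order of brightness within its gene, with its log2 difference, knockout minus control, on the horizontal axis. Red points mark the 11 with separated groups, black points tested ones that overlap, open points the 5 under the level filter, and lines the 95% confidence interval from limma over all probe sets. Only Sox5 has points below 0.

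Among the knockout arrays replicate 3 was the lowest in 7 of the 10 genes, namely Acan, Cnmd, Hapln1, Matn1, Matn3, Comp and Sox9, and replicates 1 and 2 were the highest in 4 each. Among the control arrays replicate 1 was the highest in 6 genes and replicate 2 the lowest in 5. The mean of the 10 gene-centred levels was 0.68, 0.67 and 0.15 in knockout replicates 1, 2 and 3, against -0.34, -0.55 and -0.61 in control replicates 1, 2 and 3. As list means on that scale, skeletal muscle markers stood at -0.55, -0.66 and 0.84 in knockout arrays and at 1.91, -3.37 and 1.82 in control arrays. Pericyte and smooth muscle markers stood at -0.17, -0.19 and -0.28 against 0.39, -0.27 and 0.51 in controls, and macrophage and osteoclast markers at 0.31, 0.29 and -0.16 against -0.99, 0.34 and 0.20. For pericyte genes the summed signal was 15633.7 to 18949.8 in knockout arrays and 16106.1 to 25652.1 in control arrays. Of the 11 pericyte genes 10 were below control, while 7 of 12 tested muscle genes and 3 of 6 macrophage genes were below it. Of all tested genes 48.3% lay above control. Groups were separated downward in 4 of the 11 pericyte genes, against 7.76% of all tested genes, and upward in 0. These were Rgs5 at -0.59 ± 0.07 (SE, limma adjusted p = 0.120), Kcnj8 at -0.62, Abcc9 at -0.46 and Notch3 at -0.62. Of 6 endothelial markers 5 were above control, with a median of 0.13, and of 7 suture and fibroblast markers 4, with a median of 0.06. Single markers of these lists did separate the groups upward: Mmp9, a protease of osteoclasts, had 10.95, 11.25 and 10.09 in knockout replicates 1, 2 and 3, against 8.90, 9.34 and 9.42 in control replicates 1, 2 and 3, a difference of 1.55 ± 0.29 (SE, limma adjusted p = 0.203). In its list the other 5 genes overlapped, and the summed signal of all 6 was 8939.5 to 9216 in knockout arrays and 5126.1 to 9398.5 in control arrays. The endothelial gene Cdh5 at 0.47, the suture gene Gli1 at 0.42 and the osteoblast gene Alpl at 0.42 were separated upward too. Each of these lists had 1 such gene, and 9.23% of all tested genes were separated upward. The other 5 tested osteoblast markers overlapped, and the list mean lay between -0.07 and 0.05 on every array. No listed marker of these types had a signal of 0 on any array, and their part in the cartilage differences was not tested.

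**Figure D3:**
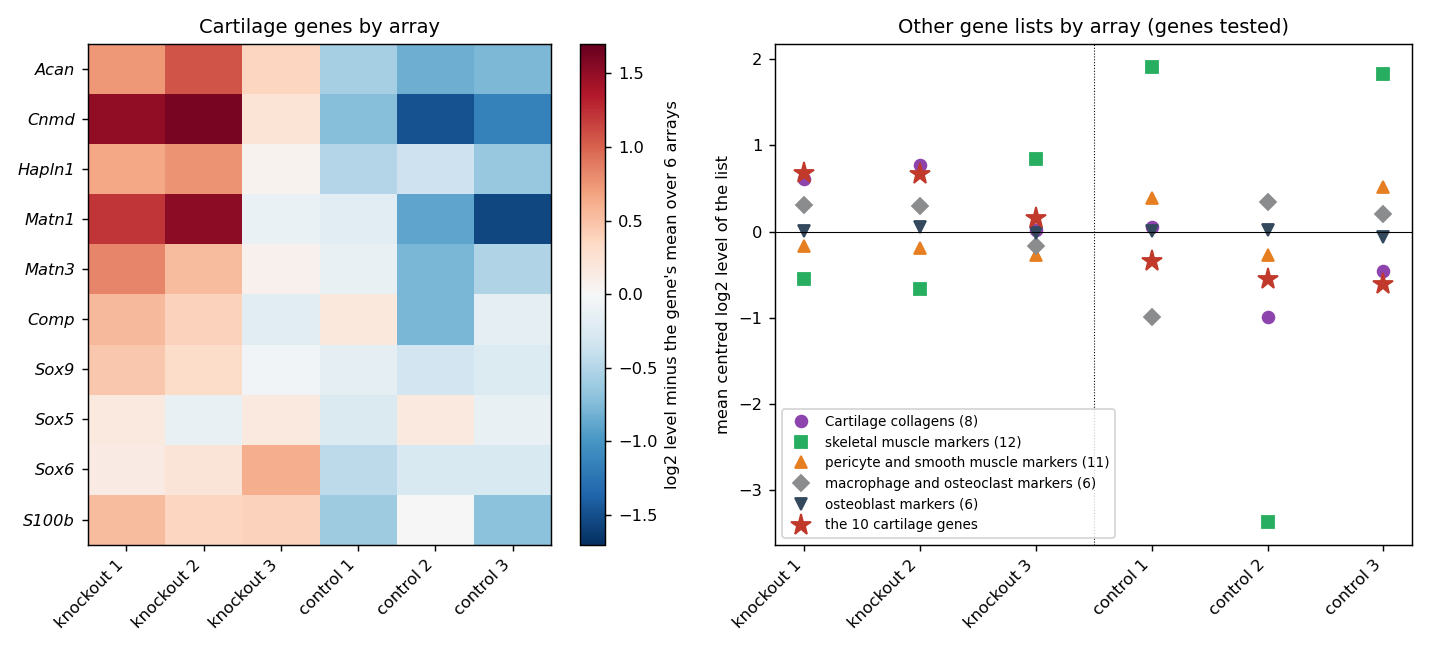
The left panel colours the log2 level of each gene on each array after its mean over the 6 arrays was taken off. The right panel plots the mean of such centred levels for the 10 cartilage genes and for 5 other lists, with knockout arrays left of the dotted line and the number of tested genes in brackets. The 10 cartilage genes stand at 0.15 or higher in knockout arrays and at -0.34 or lower in control arrays, while skeletal muscle markers run from -3.37 to 1.91 among controls.

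Leaving out single arrays moved the sizes and kept all directions above 0. Without control replicate 2, the array with the least muscle RNA, Acan (1.39, limma adjusted p = 0.0175), Cnmd (2.05, limma adjusted p = 0.0424) and S100b (1.08, limma adjusted p = 0.00899) passed, where 0.788% of all genes passed as higher and 1.94% as lower. With the deposited scaling, where the median of all genes moved to 0.14, Acan, Cnmd, Hapln1 and Matn1 passed at 1.60, 2.38, 1.13 and 1.86 (limma adjusted p = 0.0002325, 2.489e-05, 0.01202 and 0.004958), where 0.275% of all genes passed as higher. Over all alternatives the highest limma adjusted p was 0.505 for Acan, 0.637 for Cnmd, 0.697 for Hapln1, 0.746 for Matn1 and 0.697 for S100b. Without any other single array 0 of the 10 passed. With the probe sets chosen on all 6 arrays kept, a choice made after the values were seen, the Cnmd difference ran from 1.98 without knockout replicate 2 to 2.68 without knockout replicate 3, that of Acan from 1.27 to 1.62, and that of Matn1 from 1.41 without control replicate 3 to 2.23 without knockout replicate 3. Comp ran from 0.24 to 0.72 and S100b from 0.73 to 1.08.

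**Figure D4:**
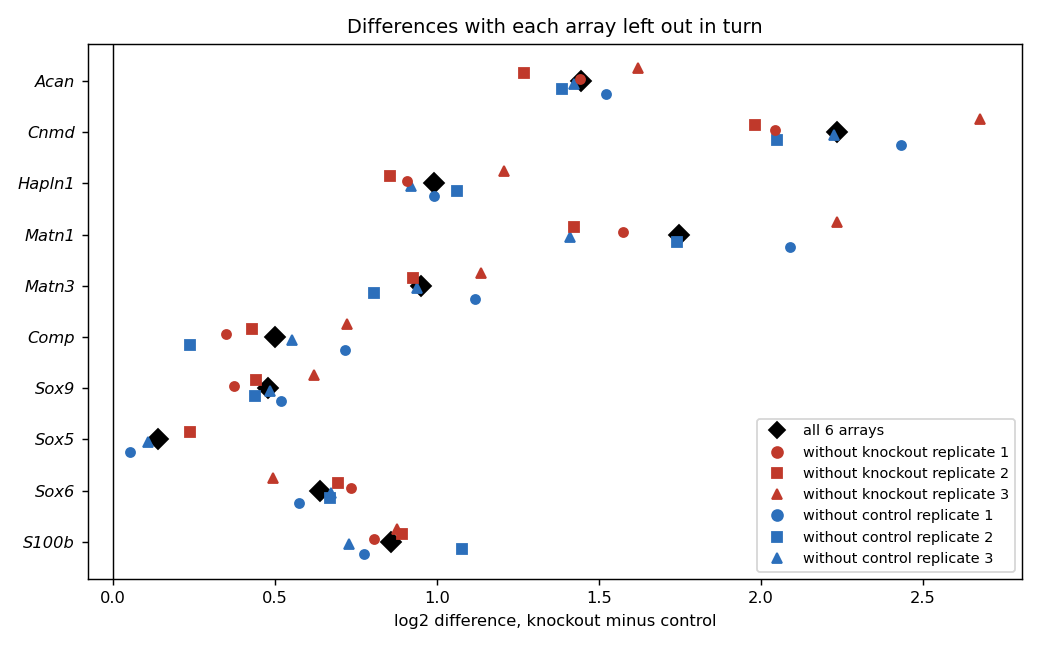
The log2 difference, knockout minus control, of each gene with all 6 arrays (black diamonds) and with each array left out in turn (red for knockout arrays, blue for control arrays, shape for the replicate number), with the probe set of the full data kept. Where a gene fell under the level filter no point is drawn, which concerns 1 of 6 for Matn3 and 3 of 6 for Sox5. All points lie above 0, from 0.05 for Sox5 to 2.68 for Cnmd.

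Genes with other roles in cartilage were read from lists that had been drawn up with earlier results of these data known. Of 36 further cartilage genes with a probe set 32 were tested, 26 above and 6 below control, with a median of 0.40 against -0.01 for all genes. Groups were separated upward in 13 and downward in 1, against 9.23% and 7.76% of all tested genes, and 0 passed in limma with all 6 arrays. Of 8 cartilage collagens 5 were separated upward, with Col9a3, Col9a2, Col9a1 and Col27a1 at 1.73, 1.42, 1.73 and 0.54. Col11a2 was the 1 separated downward, at -0.41 ± 0.11 (SE). Col9a2, with a control mean of 5.367 against a filter level of 5.371, passed the filter only through its knockout arrays. Epyc, a small proteoglycan of cartilage, had 8.66, 9.07 and 8.71 in knockout arrays against 6.96, 7.46 and 7.87 in control arrays, a difference of 1.38 ± 0.23 (SE, limma adjusted p = 0.183). Mia, a protein secreted by chondrocytes, differed by 1.06, Fgfr3, a receptor that restrains growth of cartilage, by 0.40, Panx3, a channel of hypertrophic cartilage and bone, by 0.45, and Fmod, a collagen-binding proteoglycan, by 0.54, each with separated groups. Without control replicate 2, 5 of these cartilage genes passed as higher, Col27a1, Col9a1, Col9a2, Col9a3 and Epyc, where 0.788% of all genes did, and 4 passed with the probe sets of all 6 arrays kept. With the deposited scaling 6 passed, where 0.275% of all genes did.

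The closest relatives of the set were less uniform. Of the other lecticans, link proteins and aggrecan-cleaving proteases 7 of 9 were tested, 2 above and 5 below control, with a median of -0.12. Vcan, the lectican of soft connective tissue, differed by 0.45 ± 0.09 (SE, limma adjusted p = 0.214) with separated groups, and Hapln4 by -0.29 with groups separated downward. Hapln3, Bcan and the aggrecanase Adamts4 differed by -0.17, -0.12 and -0.27, and their groups overlapped. Of 6 other matrilins and thrombospondins 5 were above control, the median was 0.21, and 0 had separated groups. The shares over all tested genes were 48.3% above control, 9.23% separated upward and 7.76% separated downward. Matn4 had 9.93, 9.95 and 9.69 in knockout arrays against 8.91, 9.70 and 9.77 in control arrays, and Thbs4, a pentameric relative of Comp found in tendon, differed by -0.39 ± 0.52 (SE). Tnmd, tenomodulin, the tendon relative of Cnmd, had 11.15, 11.33 and 11.06 in knockout arrays against 10.67, 10.83 and 10.63 in control arrays, a difference of 0.47 ± 0.10 (SE, limma adjusted p = 0.240).

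Among 5 tested Sox relatives 3 were above and 2 below control, with a median of 0.04. Sox11, a SoxC factor of skeletal progenitors, was the 1 with separated groups, at 0.67, Sox13, the remaining SoxD gene, differed by -0.22, and Sox8, a SoxE gene like Sox9, by 0.04. Of 6 S100 relatives 4 were above control and the median was 0.06. S100a1, the nearest relative of S100b, differed by 0.28 with separated groups, and S100a6 by -0.42 with overlap. Signalling genes around Sox9 gave 4 above and 3 below control among 7 tested, with a median of 0.03 and with Ptch1, Tgfb2 and Gli1 separated at 0.37, 0.51 and 0.42, while Bmp4 differed by -0.45 and Bmp2 by -0.10. In each of these lists 0 genes passed. Among all tested genes 48.3% lay above control and 9.23% had groups separated upward.

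Likeness was taken as the root mean square difference between gene-centred log2 levels over the 6 arrays. The 5 genes outside the set nearest to Acan were Col9a3 (0.18), Col9a2 (0.20), Col9a1 (0.27), Mmp9 (0.29) and Mia (0.30), against a median of 0.77 over all genes. Nearest to Cnmd were Col9a1 (0.29), Col9a3 (0.33), Col2a1 (0.48), Slc47a1 (0.49) and Mmp9 (0.51), against a median of 1.23 over all genes. The genes nearest to Sox9 were Scin, Klf5, Tafa5, Cth and Jph4, at 0.07 to 0.08. Those nearest to Comp were Anks3, Aplnr, Cd24a, Anxa8 and Vegfc, at 0.15 to 0.18. Sox9 and Comp shared none of their 5 with Acan. The measure is not scaled to the size of a difference, which was 0.48 for Sox9, 0.50 for Comp and 1.44 for Acan. It therefore cannot tell an unlike pattern from an unlike size. Genes with a large range are far from most others on this measure, and the median over all genes was 0.33 for Sox9 and 0.47 for Comp. Col9a2, Slc47a1, Jph4 and Anks3 had control means under the filter level and passed it only through their knockout arrays.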

How the data were processed

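The authors deposited 1 intensity per probe set and array on a linear scale; the submitters' processing notes name GCOS without a version. The sources used here give no background correction, probe summary or scaling target. Of 45101 probe sets 64 array controls were left out, and 34945 named 1 gene. Symbols were updated by gene identifier from the RefSeq table. From the intensities log2(signal + 16) was computed and quantile normalised, since array medians differed by more than the limit of 0.25. The brightest probe set stood for its gene, the lowest 40% of 18194 genes were left out, and 10916 were tested by limma 3.58.1 in R 4.3.3 (lmFit, eBayes with trend, 2-sided, Benjamini-Hochberg at 0.05), 3 knockout against 3 control arrays, no covariate. A second fit took probe sets. An exact permutation test of 3 against 3 arrays cannot go below 0.1 and was not used. The steps were tested on simulated data. The genes and lists were chosen with earlier results of these data known. Named genes are all 10 members, up to 5 per list by smallest p, and the 5 nearest genes by likeness; any other gene was picked after seeing values. The number of arrays limits the precision. Alternatives were the scaling, pseudocount, filter, probe set rule, array weights, replicate block and single arrays left out. Same-numbered arrays had deviations from their group means that correlated at -0.38, 0.10 and -0.04. With 3 arrays per group this cannot decide whether the numbers pair arrays, and no pairing was used in the main fit.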

Additional observations from a re-analysis of the deposited data

How the results depend on the processing

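The differences of the 10 genes stayed above 0 under every alternative in which they were tested. With all 6 arrays 0 of the 10 passed 0.05, against 4 with the deposited scaling. With 1 array left out the number that passed ran from 0 to 3, the 3 without control replicate 2, also with probe sets kept. For all genes the numbers higher and lower were 0 and 0 in limma (1151 genes at an unadjusted p under 0.05), 30 and 0 with the deposited scaling, and 86 and 212 without control replicate 2 (86 and 210 with probe sets kept), while leaving out any other array gave 0. Other cartilage genes past the threshold were 0, against 6 with the deposited scaling and 0 to 5 with 1 array left out (5 without control replicate 2, and 4 with probe sets kept). Groups were separated in 8 of the 10, in 5 of 9 with the mean of all probe sets, and in 5 to 8 with 1 array left out, the 5 without control replicate 3, where Sox6, Sox9 and Matn3 were read by other probe sets. With the probe sets kept that number was 7 to 9, the 9 when knockout replicate 3 was left out, and 8 without control replicate 3. With an array left out groups separate more easily, so the 9 is no gain over the 8 of the full data. The share of all genes with separated groups was not counted in these alternatives. The median difference of 0.90 was 0.58 with a pseudocount of 64 and 0.64 to 1.06 with 1 array left out (0.82 to 1.14 with probe sets kept). With the replicate block, whose numbers are not shown to pair arrays, 0 of the 10 and 0 genes in all passed, with a smallest adjusted p of 0.416, so no call changed. Members under the filter in an alternative gave no value there.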
